A study of Homo sapiens with 6 samples.

Results

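The genes described here encode the core machinery of macroautophagy, the cargo receptors that it consumes, and the autophagosomal SNARE syntaxin 17 and the ATPase VCP. They were 38 genes chosen by symbol, and each of the 38 symbols matched 1 of the 62703 rows of the deposited expression table. Transcript levels came from RNA sequencing of 786-O, an established line from a human clear cell kidney tumour in which VHL is lost and HIF-2α is therefore stable. There were 3 samples in each of 2 groups: cells labelled wild type and titled NC, called control below, and cells labelled as overexpressing OGT, which modifies serines and threonines of nuclear and cytosolic proteins with single O-linked N-acetylglucosamine units. All 6 samples were cultured in the same serum-containing medium, and no starvation, lysosomal inhibitor or other agent is named in the labels. The labels name neither the vector nor whether the OGT cells are a clone or a pool, and nothing states that replicates came from separate cultures. The p-values therefore weigh the difference between groups only against the scatter of these samples, and that scatter may be technical.

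In macroautophagy, a kinase complex built around ULK1 or ULK2 starts the process, and a lipid kinase complex around PIK3C3 marks the growing membrane with phosphatidylinositol 3-phosphate. ATG9 vesicles and ATG2 lipid transfer proteins supply the membrane, and a pair of ubiquitin-like conjugation systems couples LC3 and GABARAP proteins, the ATG8 family, to phosphatidylethanolamine on it. Receptors such as p62 (SQSTM1) bind ubiquitylated cargo and ATG8 proteins at once, so that cargo and receptor are degraded together, and syntaxin 17 then drives fusion with the lysosome. Transcript levels do not measure flux through this pathway.

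Values were deposited as TPM, an abundance scaled by transcript length and library, so levels can be compared between genes. TPM keeps no read total: sequencing depth is unknown, no counting interval is given, and less RNA of a gene per cell cannot be told apart from fewer cells expressing it. OGT transcript was 23.1 ± 0.525 TPM (SD, n = 3) in control and 326 ± 47.3 TPM in OGT libraries. The 8 renal line markers, PAX8 and KRT8 among them, were above 0 in each library. Summed endothelial markers (3 genes) and fibroblast markers (5 genes) reached at most 4.77 and 3.04 TPM. The 5 leukocyte markers summed to between 67.12 and 72.95 TPM in control and between 101.61 and 119.69 TPM in OGT libraries. Most of that was the lysosomal protein gene CD68, while CD3E reached at most 0.23 TPM, and PTPRC was at 12.23 TPM in control replicate 1 and at most 0.07 TPM in the other libraries. The part of these transcripts in the results below was not tested. In limma, 48.8% of 12645 genes were called (threshold 0.05 after Benjamini-Hochberg adjustment), 39.1% being higher in OGT libraries and 9.70% lower. Each change below is the OGT level minus that of control as log2(TPM + 1), a scale that shrinks the changes of low genes, and is to be read against the median of all tested genes, 0.30. They also followed transcript GC content and length across all genes (Spearman -0.47 and 0.39, n = 12348 genes, which share 6 libraries). A second value, with both trends subtracted within each library, is therefore given beside the first and called corrected. After that correction 16.0% of genes were higher and 12.8% lower, and the median of all genes was 0.03.

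Among the 38 autophagy genes, 35 passed the filter on low values (at least 1 TPM in at least 3 libraries), 18 of them rose with OGT overexpression, 1 fell and 16 were not called. The share that rose stands beside 39.1% of all tested genes and the share that fell beside 9.70%. The largest rises were those of the cargo receptor gene TAX1BP1, the E2-like conjugation gene ATG3 and the ATG8 gene MAP1LC3B, which encodes LC3B. These 3 were the members that rose at least 2-fold on the log2(TPM + 1) scale, which 10.7% of all tested genes did. The one member that fell was ATG101, a subunit of the ULK complex. The median change of the tested members was 0.43, and 25 of 35 lay above the median of all genes. The 3 OGT libraries lay wholly above the 3 control libraries for 20 tested members (46.2% of all tested genes) and wholly below for 1 (12.4%). Genes said below to have groups that did not overlap stand against these shares. After the correction 5 members rose (16.0% of all genes), 3 fell (12.8%) and 27 were not called, with a median of 0.03. Quantile normalization gave 10 members higher and 1 lower (20.2% and 17.8% of all genes), and centring each library on its median gave 9 and 5 (15.3% and 24.2%), with the median of all genes at 0.02 and -0.09. Without control replicate 2, 12 members rose and 2 fell (33.2% and 8.13% of all genes). The 3 members that were not tested were near or below 1 TPM. ATG4A, which encodes an LC3 protease, was 0.97, 0.88 and 1.10 TPM in control and 0.82, 1.56 and 0.79 TPM in OGT libraries. Its paralog ATG4C was 0.44, 0.49 and 0.28 TPM in control and 0.40, 1.14 and 1.82 TPM in OGT libraries. MAP1LC3A was listed at 0 in 4 libraries and at 0.76 TPM in control replicate 1 and OGT replicate 3. For each of these 3 genes the groups overlapped.

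**Figure D1:**
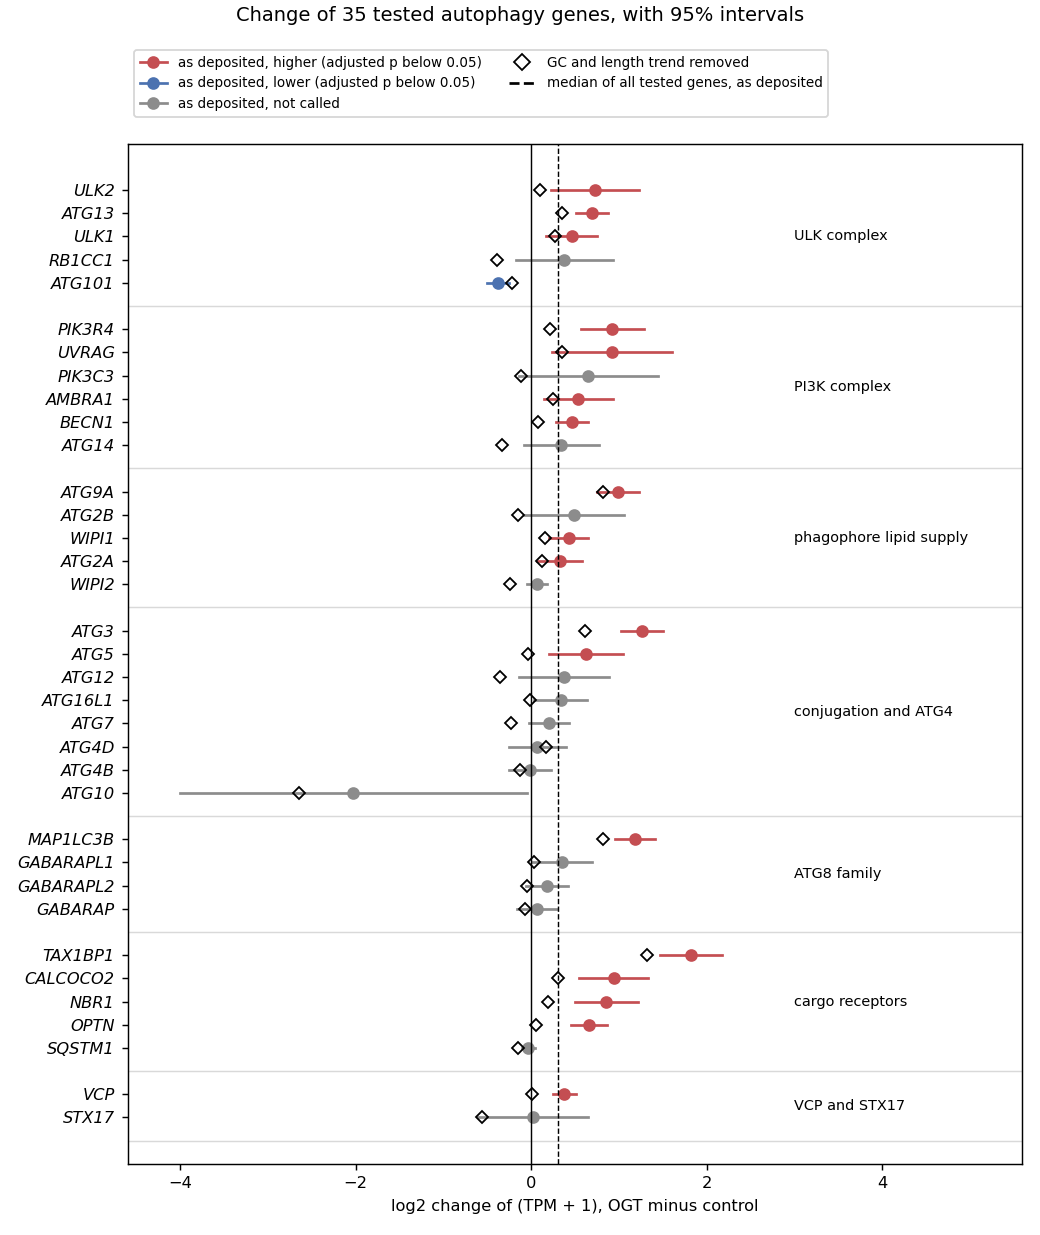
Change of each tested member on the log2(TPM + 1) scale, OGT minus control, by role (filled circles, limma estimates with 95% intervals, 3 libraries a group; red, called higher; blue, called lower; grey, not called), with corrected estimates as open diamonds and the median of all tested genes, 0.30, as a dashed line. Corrected estimates lie to the left for most members, and TAX1BP1, ATG3, MAP1LC3B, ATG9A and ATG13 remain past the threshold above 0.

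A call was kept under each of the 14 alternative settings by 6 members: TAX1BP1, ATG3, MAP1LC3B, ATG9A and ATG13, which rose, and ATG101, which fell. How many of all tested genes kept a call in this way was not counted, so these 6 have no share to stand beside. The settings were another pseudocount, other filters, quantile normalization, median centring, the correction, a replicate block with and without it, and each library left out. TAX1BP1, encoding a receptor for ubiquitylated cargo, was 3.71, 3.35 and 2.77 TPM in control and 12.72, 15.90 and 13.82 TPM in OGT libraries. Its mean was 4.32 times the control mean (log2 change 1.83, SE 0.150, limma adjusted p = 0.000193; corrected 1.32, adjusted p = 0.00113). ATG3, whose product transfers ATG8 proteins to phosphatidylethanolamine, was 7.36, 7.69 and 7.63 TPM in control and 21.12, 19.09 and 18.51 TPM in OGT libraries. The log2 change was 1.26 (SE 0.1, limma adjusted p = 0.000173; corrected 0.61, adjusted p = 0.00487), and the lowest OGT library was well above the highest control library.

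MAP1LC3B, which encodes the ATG8 protein most used as an autophagosome marker, was 17.69, 22.56 and 19.93 TPM in control and 46.36, 47.91 and 45.64 TPM in OGT libraries. The log2 change was 1.18 (SE 0.0974, limma adjusted p = 0.000194; corrected 0.82, adjusted p = 0.00161). Its near-copy MAP1LC3B2 was at 0.65 TPM in control and 0.983 TPM in OGT libraries on average, and how reads were divided between the copies is uncertain. ATG9A encodes a scramblase that seeds the autophagosome from small vesicles. It was 35.27, 30.35 and 40.24 TPM in control and 71.17, 71.67 and 68.83 TPM in OGT libraries, and its log2 change was 0.99 (SE 0.102; limma adjusted p = 0.000423; corrected 0.82, adjusted p = 0.00144). Its annotation shares 1833 exon bases with another gene on the same strand, AC068946.2, at 8.05 and 6.45 TPM, so their division of reads is uncertain too.

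ATG13 and ATG101 encode HORMA domain proteins that pair with each other in the ULK complex, and their transcripts moved in opposite directions. ATG13 was 32.54, 30.55 and 35.47 TPM in control and 53.60, 56.36 and 51.68 TPM in OGT libraries (log2 change 0.70, SE 0.0772, limma adjusted p = 0.000542; corrected 0.35, adjusted p = 0.00984). ATG101 was 175.97, 186.72 and 177.72 TPM in control and 130.24, 144.48 and 140.51 TPM in OGT libraries (log2 change -0.38, SE 0.0542, limma adjusted p = 0.00154; corrected -0.22, adjusted p = 0.0202). The groups did not overlap for either gene. Within each library, which removes any common scaling, ATG101 stood at 5.41, 6.11 and 5.01 times ATG13 in control and at 2.43, 2.56 and 2.72 times ATG13 in OGT libraries. The ratio shows unequal change of the pair and says nothing of which of them moved. It was not corrected for the GC and length trends. The ATG101 and ATG13 transcripts differ in GC content (59.8% and 52.6%) and length (1439 and 4348 bases). How often other gene pairs separate in this way was not counted. In 4 of these 6 genes an exon overlaps a gene with transcript on the opposite strand (HARBI1 with ATG13, SLC35A5 with ATG3, FBXO31 with MAP1LC3B, JAZF1 with TAX1BP1), whose group means were between 1.35 and 20.5 TPM. The strand of the library is not given in the sources used here, so shared reads cannot be told apart. The same holds for BECN1, whose exons share 300 bases with PSME3 (99.9 and 116 TPM), and for ATG2B, ATG4B, ATG4D, ATG7, ATG12 and WIPI1, which overlap exons of other transcribed genes.

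**Figure D2:**
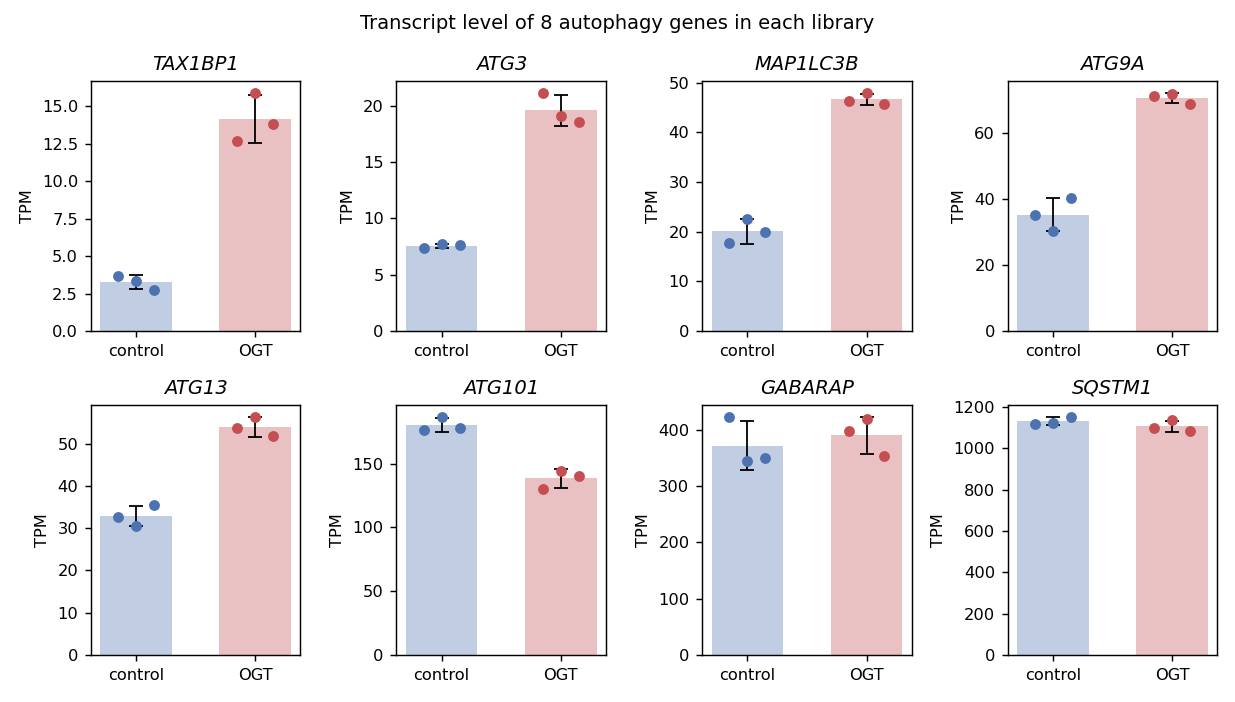
TPM of 8 members in each library (points) with the group mean (bar) and SD (error bar), n = 3 libraries a group, each panel with its own linear axis from 0. The groups separate for TAX1BP1, ATG3, MAP1LC3B, ATG9A, ATG13 and ATG101 and overlap for GABARAP and SQSTM1, the most abundant members of their families.

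The sequence at the annotated gene start is shown for 5 of these 6 genes, because their calls held under each setting and each window holds a match to a motif of a factor tied to autophagy or to VHL loss. The window of TAX1BP1 holds no match and is not shown. Windows run from 250 bases before to 50 bases after the start in RefSeq on GRCh38.p14, and that start need not be the one used in these cells. Capitals mark matches on either strand to the core of the CLEAR element bound by TFEB (TCACGTGA), the E-box (CACGTG), the HIF element core (ACGTG), which is part of both, and the antioxidant element core bound by NRF2 (TGACNNNGC). They are matches of letters and not evidence of binding.
ATG3: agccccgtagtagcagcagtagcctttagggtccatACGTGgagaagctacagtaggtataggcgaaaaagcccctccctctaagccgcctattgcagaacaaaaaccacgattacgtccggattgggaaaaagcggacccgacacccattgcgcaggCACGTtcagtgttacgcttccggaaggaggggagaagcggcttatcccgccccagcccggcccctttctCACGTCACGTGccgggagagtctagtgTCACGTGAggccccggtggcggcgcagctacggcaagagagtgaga
MAP1LC3B: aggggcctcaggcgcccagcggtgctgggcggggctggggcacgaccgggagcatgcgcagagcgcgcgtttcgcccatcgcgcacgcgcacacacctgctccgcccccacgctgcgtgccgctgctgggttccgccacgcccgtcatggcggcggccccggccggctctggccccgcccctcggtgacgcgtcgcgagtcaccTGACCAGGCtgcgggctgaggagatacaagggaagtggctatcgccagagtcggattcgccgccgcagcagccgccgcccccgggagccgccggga
ATG9A: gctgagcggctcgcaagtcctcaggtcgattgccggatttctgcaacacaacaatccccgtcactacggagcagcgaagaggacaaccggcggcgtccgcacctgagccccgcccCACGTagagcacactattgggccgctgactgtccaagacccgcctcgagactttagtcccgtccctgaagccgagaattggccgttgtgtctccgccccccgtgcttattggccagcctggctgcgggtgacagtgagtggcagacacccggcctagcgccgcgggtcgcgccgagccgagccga
ATG13: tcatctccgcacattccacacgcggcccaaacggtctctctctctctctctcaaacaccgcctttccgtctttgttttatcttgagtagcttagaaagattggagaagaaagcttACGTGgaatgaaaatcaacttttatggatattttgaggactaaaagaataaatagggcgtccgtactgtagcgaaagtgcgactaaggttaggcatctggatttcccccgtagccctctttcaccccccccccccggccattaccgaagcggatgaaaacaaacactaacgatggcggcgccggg
ATG101: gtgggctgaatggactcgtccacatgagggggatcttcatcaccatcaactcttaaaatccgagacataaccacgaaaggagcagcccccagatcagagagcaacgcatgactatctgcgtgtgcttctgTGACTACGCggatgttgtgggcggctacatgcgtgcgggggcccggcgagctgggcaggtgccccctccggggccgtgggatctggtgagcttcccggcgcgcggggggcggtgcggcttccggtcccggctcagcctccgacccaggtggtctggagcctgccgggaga
The windows are chr3:112561913-112562212, minus strand for ATG3, chr16:87392086-87392385, plus strand for MAP1LC3B, chr2:219229587-219229886, minus strand for ATG9A, chr11:46617303-46617602, plus strand for ATG13 and chr12:52069728-52070027, plus strand for ATG101. The ATG3 window held the CLEAR core at bases 5 to 12 after the start, 2 E-boxes and 7 matches to the HIF core, some of them within the E-boxes. MAP1LC3B and ATG101 each held 1 antioxidant core, TGACCAGGC and TGACTACGC, and ATG9A and ATG13 each held 1 HIF core. Of the 38 members 33 had a window. The CLEAR core was in 1 of 33 (1.04% of 27305 windows in the table), the E-box in 2 (7.43%), the HIF core in 10 (21.6%) and the antioxidant core in 4 (13.6%). The HIF core was found in 5 of 17 risen members and in 5 of 16 others. No test was made of these counts, and the share of all windows with a match to any of these motifs was not counted.

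The ULK complex has 5 members, the kinases ULK1 and ULK2, the scaffold RB1CC1 (FIP200), ATG13 and ATG101. Of these, 3 rose and 1 fell, with a median change of 0.46. The counts by role group, here and below, stand beside 39.1% of all tested genes higher and 9.70% lower. ULK1 was 12.49, 12.22 and 14.10 TPM in control and 19.14, 20.12 and 15.53 TPM in OGT libraries (log2 change 0.46, limma adjusted p = 0.0201). ULK2, at 0.92, 0.38 and 0.87 TPM in control, was 1.58, 1.82 and 2.11 TPM in OGT libraries (0.73, adjusted p = 0.0262). For both kinases the groups did not overlap, but neither was called after the correction (0.27, adjusted p = 0.0891, and 0.10, adjusted p = 0.766). Quantile normalization (0.13 for ULK1, 0.41 for ULK2) and median centring (0.07 and 0.34) ended both calls as well (adjusted p from 0.191 to 0.659). The call of ULK1 was also lost when any one of control 1, control 2, OGT 1 and OGT 2 was left out (adjusted p from 0.05004 to 0.0728). That of ULK2 was lost when any one of control 2, OGT 2 and OGT 3 was left out (0.0656 to 0.0773). RB1CC1, which tethers the complex, was 0.53, 0.88 and 1.33 TPM in control and 1.21, 1.91 and 1.29 TPM in OGT libraries and was not called (0.38, 95% interval -0.18 to 0.93; corrected -0.39). Summed over the complex, ATG101 outweighed the other 4 genes, and the sum was 228 ± 4.47 TPM in control and 214 ± 9.75 TPM in OGT libraries.

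Of the 6 members around the lipid kinase complex 4 rose and none fell (0 in limma even at an unadjusted p below 0.05), with a median change of 0.59. PIK3R4, encoding the regulatory pseudokinase VPS15, was 3.50, 4.39 and 4.96 TPM in control and 8.54, 8.88 and 9.48 TPM in OGT libraries (log2 change 0.92, limma adjusted p = 0.00272). PIK3C3, the catalytic subunit gene, was 4.01, 1.96 and 1.58 TPM in control and 6.11, 4.52 and 2.76 TPM in OGT libraries, with overlapping groups (0.65, adjusted p = 0.151). Leaving out control replicate 1, its highest control library, gave a call (adjusted p = 0.0465). BECN1, the scaffold beclin 1, was 27.44, 28.10 and 28.38 TPM in control and 42.47, 37.76 and 37.08 TPM in OGT libraries (0.47, adjusted p = 0.00267).

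ATG14 and UVRAG bind beclin 1 in alternative complexes, the first acting in autophagosome formation and the second in endosome and autophagosome maturation. UVRAG was 1.64, 1.70 and 2.84 TPM in control and 7.38, 3.71 and 3.70 TPM in OGT libraries (log2 change 0.92, limma adjusted p = 0.0351). OGT replicate 1 stood apart at about the sum of the other 2, and without it the change was 0.64 (adjusted p = 0.0893). The call was also lost without control replicate 1 or 2 (0.0865 and 0.0938). ATG14 was 2.53, 2.10 and 1.87 TPM in control and 3.39, 3.02 and 2.62 TPM in OGT libraries and was not called, although its groups did not overlap (0.34, 95% interval -0.09 to 0.77). AMBRA1, a regulator of the complex and a cullin substrate receptor, was 11.01, 8.11 and 10.42 TPM in control and 16.49, 15.88 and 11.94 TPM in OGT libraries (0.54, adjusted p = 0.0329). Its call was lost when any one of control 2, control 3, OGT 1 and OGT 2 was left out (0.0553 to 0.107). After the correction 0 of the 6 were called (limma), with changes from -0.34 for ATG14 to 0.36 for UVRAG. PIK3R4 was still called after quantile normalization and after median centring (0.51 and 0.54, adjusted p = 0.0459 and 0.0342). BECN1 (0.18 and 0.08), UVRAG (0.52 and 0.53) and AMBRA1 (0.17 and 0.15) were called after neither (adjusted p from 0.0946 to 0.476).

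Membrane supply is represented by 5 members, of which 3 rose and none fell (0 in limma even at an unadjusted p below 0.05). Besides ATG9A, WIPI1 and ATG2A rose. WIPI1, a reader of phosphatidylinositol 3-phosphate, was 20.87, 25.91 and 22.25 TPM in control and 31.26, 31.31 and 30.93 TPM in OGT libraries (log2 change 0.43, limma adjusted p = 0.00904; corrected 0.16, adjusted p = 0.267). The lipid transfer gene ATG2A was 24.23, 20.88 and 21.92 TPM in control and 30.84, 29.50 and 24.68 TPM in OGT libraries (0.33, adjusted p = 0.0425; corrected 0.13, adjusted p = 0.359). The call of ATG2A was lost when any one of control 2, control 3, OGT 1 and OGT 2 was left out (0.096 to 0.132), and its change was -0.06 after median centring. Neither WIPI1 (0.13 and 0.04) nor ATG2A was called after quantile normalization or median centring (adjusted p from 0.332 to 0.865). Its paralog ATG2B stood near the floor of the filter, at 0.52, 0.27 and 1.00 TPM in control and 1.30, 1.44 and 0.90 TPM in OGT libraries (0.49, adjusted p = 0.132). WIPI2, the paralog that recruits ATG16L1, was the most abundant of the 5, at 115.40, 117.65 and 110.66 TPM in control and 122.90, 117.68 and 118.57 TPM in OGT libraries. Its change of 0.06 (95% interval -0.05 to 0.18, limma adjusted p = 0.311) lay below the median of all genes although its groups did not overlap, and it was called lower after the correction (-0.24, adjusted p = 0.012) and after median centring (-0.33, adjusted p = 0.00366).

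The conjugation systems have the most members. Of 8 tested genes 2 rose and none was called lower (1, ATG10, at an unadjusted limma p below 0.05), and the median change of 0.27 lay below that of all genes. ATG7, the E1-like enzyme that works upstream of ATG3 and ATG10, was 51.03, 44.27 and 42.67 TPM in control and 47.64, 54.67 and 56.95 TPM in OGT libraries (log2 change 0.20, 95% interval -0.03 to 0.43, limma adjusted p = 0.127). In each library ATG3 was lower than ATG7, at 0.144, 0.174 and 0.179 times its level in control and 0.443, 0.349 and 0.325 times in OGT libraries. The 3 ratios of one group did not overlap those of the other. They were not corrected for the GC and length trends, and the ATG3 and ATG7 transcripts differ in GC content (39.9% and 50.8%). How often other gene pairs separate in this way was not counted.

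ATG12, ATG5 and ATG16L1 form the complex that directs LC3 lipidation to the membrane. ATG5 was 2.16, 1.59 and 1.97 TPM in control and 3.95, 3.07 and 3.45 TPM in OGT libraries (log2 change 0.63, limma adjusted p = 0.0248), a call lost after the correction (-0.04, adjusted p = 0.886), after quantile normalization and median centring (0.24 in both, adjusted p = 0.324 and 0.322) and when any one of control 2, control 3, OGT 1 and OGT 3 was left out (0.0501 to 0.085). ATG12 was 9.42, 6.68 and 8.28 TPM in control and 8, 14.24 and 10.81 TPM in OGT libraries, with overlapping groups (0.38, adjusted p = 0.195). ATG16L1 was 34.47, 35.44 and 46.20 TPM in control and 52.44, 50.12 and 44.00 TPM in OGT libraries (0.34, adjusted p = 0.0638). Its groups overlapped between control replicate 3 and OGT replicate 3, and without control replicate 3 the change was 0.47 (adjusted p = 0.0112). A filter at a mean of 5 TPM also gave a call (adjusted p = 0.0488), and its corrected change was -0.02.

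The E2-like gene ATG10, which couples ATG12 to ATG5, had the largest standard error of the tested members on the log2 scale (0.827), at 14.70, 2.53 and 37.29 TPM in control and 1.28, 3.87 and 1.81 TPM in OGT libraries. Control replicate 2 lay within the range of the OGT libraries and the other 2 control libraries lay far above it. The log2 change was -2.03 (95% interval -4.01 to -0.05, limma adjusted p = 0.0832), and without control replicate 2 it was -2.96 (adjusted p = 0.00631). ATG10 shares 374 exon bases with the ribosomal protein gene RPS23 on the opposite strand. RPS23 was 906.2, 872.85 and 853.17 TPM in control and 912.8, 950.73 and 958.41 TPM in OGT libraries, and its part in the ATG10 values was not tested. Without strand, reads in the shared bases cannot be told apart. Among the LC3 proteases, ATG4B was 85.29, 99.00 and 103.46 TPM in control and 102.58, 98.90 and 83.84 TPM in OGT libraries (-0.01, 95% interval -0.25 to 0.23), and called lower only after median centring (-0.40, adjusted p = 0.02). ATG4D was 28.69, 39.88 and 39.55 TPM in control and 40.51, 35.34 and 36.95 TPM in OGT libraries (0.07, 95% interval -0.25 to 0.39). Both groups overlapped for each protease gene.

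Within the ATG8 family MAP1LC3B alone was called, higher, of 4 tested genes. GABARAP was the most abundant, at 422.26, 344.49 and 349.88 TPM in control and 397.97, 419.31 and 353.78 TPM in OGT libraries (log2 change 0.07, 95% interval -0.16 to 0.30, limma adjusted p = 0.569). It was called lower after median centring (-0.32, adjusted p = 0.0222). GABARAPL2 (GATE-16) was 31.76, 36.99 and 30.75 TPM in control and 35.12, 36.38 and 41.84 TPM in OGT libraries (0.18, 95% interval -0.06 to 0.42). GABARAPL1 was 22.39, 19.93 and 18.05 TPM in control and 31.34, 24.80 and 22.15 TPM in OGT libraries (0.35, adjusted p = 0.0824), and was called without OGT replicate 3 (0.46, adjusted p = 0.0447). The groups overlapped for these 3 genes. MAP1LC3B made up 3.57%, 5.32% and 4.76% of the summed TPM of the 5 family genes in control and 9.08%, 9.07% and 9.83% in OGT libraries. The share of GABARAP was 83.4 ± 2.04% in control and 77.8 ± 1.57% in OGT libraries (SD, n = 3), and those of GABARAPL1 and GABARAPL2 changed by less than 1 percentage point. In control cells MAP1LC3B ranked level with GABARAPL1 (20.1 ± 2.44 and 20.1 ± 2.18 TPM), and in OGT cells it stood above GABARAPL1 and GABARAPL2 in each library.

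Cargo receptor genes rose in 4 of 5 cases, with a median change of 0.86, the highest of the 7 role groups. Besides TAX1BP1, these were NBR1, CALCOCO2 and OPTN. NBR1, a p62 relative, was 7.52, 7.57 and 6.22 TPM in control and 16.41, 13.02 and 11.83 TPM in OGT libraries (log2 change 0.86, limma adjusted p = 0.00377). CALCOCO2 (NDP52), a receptor for bacteria and mitochondria, was 15.62, 22.52 and 14.78 TPM in control and 37.51, 30.51 and 35 TPM in OGT libraries (0.94, adjusted p = 0.0036). OPTN, optineurin, was 29.06, 24.99 and 30.13 TPM in control and 43.79, 46.25 and 44.60 TPM in OGT libraries (0.66, adjusted p = 0.00104). None of these 3 overlapped between groups, and each call held with any 1 library left out, after quantile normalization and after median centring. After the correction none of the 3 was called (0.19, 0.30 and 0.05, adjusted p from 0.245 to 0.651). Their reference transcripts had 44.2% to 44.9% GC, against a median of 50.1% over all genes.

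SQSTM1, which encodes p62, was the most abundant of the 38 genes and did not share the rise. It was 1120.62, 1121.76 and 1154.12 TPM in control and 1100.80, 1136.09 and 1085.32 TPM in OGT libraries (log2 change -0.03, 95% interval -0.11 to 0.04, limma adjusted p = 0.446). The groups overlapped, and the interval lay below the median of all genes. SQSTM1 was called lower after median centring (-0.42, adjusted p = 0.000274) and after the correction (-0.15, adjusted p = 0.00983), and its change was 0.02 after quantile normalization. It shares 105 exon bases with MGAT4B, a glycosyltransferase gene on the opposite strand at 275 and 385 TPM, and 1582 with MRNIP at 13.4 and 13.3 TPM. SQSTM1 made up 95.2%, 95% and 95.5% of the summed TPM of the 5 receptor genes in control and 90.9%, 91.5% and 91.2% in OGT libraries. TAX1BP1 went from 0.276 ± 0.0435% to 1.16 ± 0.115% of that sum. The receptor pool as a whole was 1188 ± 17.2 TPM in control and 1215 ± 25.8 TPM in OGT libraries.

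**Figure D3:**
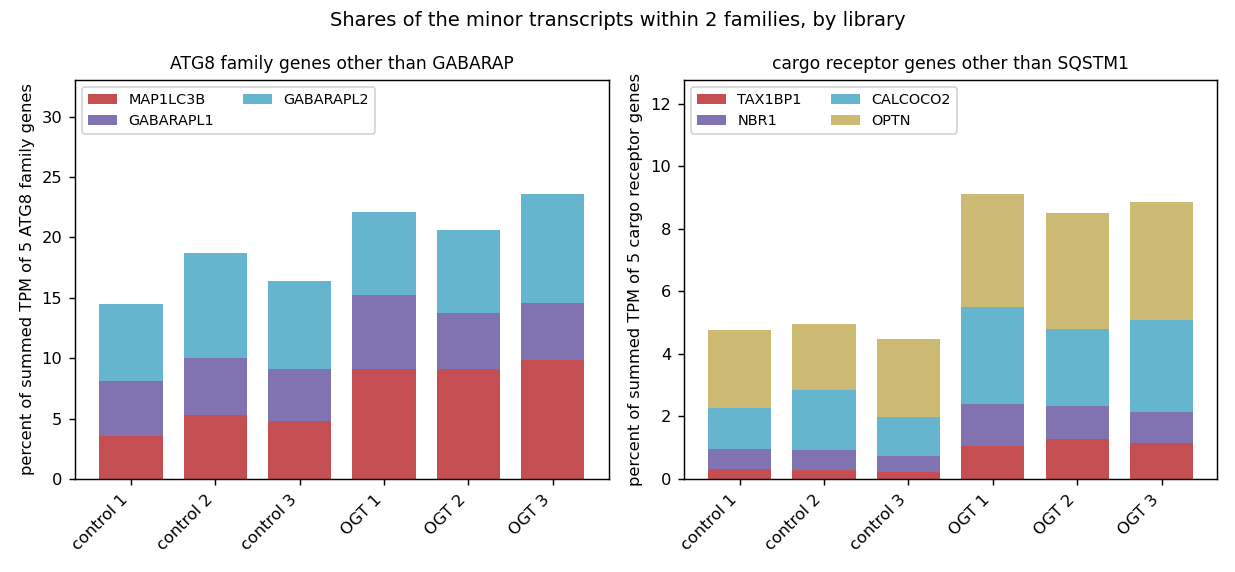
Percent of the summed TPM of the 5 ATG8 family genes (left) and of the 5 cargo receptor genes (right) taken by the genes other than GABARAP and SQSTM1, for each of the 6 libraries (stacked bars from 0; MAP1LC3A, at most 0.164%, is not drawn). MAP1LC3B takes 9.07% to 9.83% with OGT against 3.57% to 5.32% in control, and SQSTM1, the part not drawn on the right, makes up 95% to 95.5% in control libraries but 90.9% to 91.5% with OGT.

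VCP, the segregase that extracts ubiquitylated proteins and acts in autophagosome maturation, was 195.43, 177.65 and 202.19 TPM in control and 251.51, 250.26 and 244.74 TPM in OGT libraries. Its groups did not overlap (log2 change 0.38, SE 0.0554, limma adjusted p = 0.00172), but the call was lost after the correction (0.01, adjusted p = 0.911) and the change was -0.01 after median centring (adjusted p = 0.859). The call of VCP held after quantile normalization (0.36, limma adjusted p = 0.0023) and with any 1 library left out (adjusted p from 0.00297 to 0.0096). STX17, the SNARE gene of fusion, was low, at 0.62, 1.95 and 1.39 TPM in control and 1.58, 1.04 and 1.27 TPM in OGT libraries. The change of 0.02 had a 95% interval from -0.60 to 0.65, too wide to place the gene with those that rose or with those that did not.

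The members' changes stood beside the properties of their transcripts. Among the 14 tested members with at most 45% GC, 6 rose and the median change was 0.56, while 55.7% of 3905 genes in that range rose with a median of 0.70. Between 45% and 55% GC 8 of 13 members rose (41.3% of genes; medians 0.43 and 0.33), and above 55% GC 4 of 8 rose (22.6% of genes; medians 0.20 and 0.05). Of the 6 members with a call under each setting, ATG3 had 39.9% GC, TAX1BP1 48.0%, MAP1LC3B 48.7%, ATG13 52.6%, and ATG9A and ATG101 59.8%. Members that rose at high GC were ATG9A, ULK1, ATG2A and AMBRA1. Across the 35 members the Spearman correlation of the change was -0.27 with GC and 0.30 with transcript length. For the corrected change it was 0.28 with GC and -0.01 with length (-0.03 and 0.01 over all genes). The sign of the GC correlation among the members thus differed before and after the correction, but neither correlation over these 35 genes was tested. These are descriptions over genes that share 6 libraries.

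Around the members, 7 lists held 105 further genes of autophagy control, execution and VCP function, of which 93 were tested, 50 rose and 12 fell. These are 53.8% and 12.9% of them, beside 39.1% and 9.70% of all tested genes. The median change was 0.42. After the correction 16 rose and 12 fell with a median of 0.02, and their 17.2% and 12.9% lay near the 16.0% and 12.8% of all genes. The counts by list below stand against the same shares of all genes. The kinase complex mTORC1 restrains ULK1 when nutrients are present. Of the 18 genes of mTORC1, its lysosomal anchor and the TSC complex, 9 rose and 3 fell (corrected, 4 and 1). In the pentameric Ragulator anchor, LAMTOR1 and LAMTOR5 were not called (log2 changes 0.03 and 0.07, limma adjusted p = 0.687 and 0.409). Both were called lower after median centring (-0.36 and -0.32, adjusted p = 0.00327 and 0.00708). The other subunits moved in different directions. LAMTOR3 rose from 0.74, 1.5 and 0.69 TPM to 6.51, 5.45 and 5.53 TPM (log2 change 1.81, limma adjusted p = 0.000709; corrected 1.08). LAMTOR2 fell from 174.14, 146.70 and 151.01 TPM to 102.10, 101.63 and 107.53 TPM (-0.59, adjusted p = 0.000811; corrected -0.30), and LAMTOR4 from a mean of 515 to 357 TPM (-0.54, adjusted p = 0.00222; corrected -0.23, adjusted p = 0.079). The Rag GTPase gene RRAGB (1.20, corrected 0.79) and TSC1 (1.03, corrected 0.49, adjusted p = 0.0776) rose. MLST8 fell (-0.28, limma adjusted p = 0.0338), a call lost after the correction (-0.17, adjusted p = 0.134), without control replicate 3 and without OGT replicate 1 or 3 (adjusted p from 0.0701 to 0.0914).

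AMPK, the energy sensor that activates ULK1, and its upstream kinase LKB1 gave 5 genes that rose and 1 that fell of 8 tested (corrected, 1 and 1). PRKAA1, the catalytic subunit gene, rose from 4.22, 4.51 and 4.47 TPM to 16.25, 15.48 and 13.22 TPM (log2 change 1.56, limma adjusted p = 0.000178; corrected 0.85, adjusted p = 0.00339). STK11, which encodes LKB1, fell from 143.85, 137.41 and 149.23 TPM to 111.55, 113.63 and 109.91 TPM (-0.36, adjusted p = 0.00123; corrected -0.47, adjusted p = 0.000506). The groups did not overlap for either gene. PRKAB2 (1.27) and CAB39 (0.72), a scaffold of LKB1, rose as deposited and were not called after the correction (adjusted p = 0.107 and 0.968). CAB39 was not called without OGT replicate 1, 2 or 3 either (adjusted p from 0.0545 to 0.0944), or after quantile normalization or median centring (0.299 and 0.283).

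Of 8 tested genes that regulate autophagy transcription, 4 rose: TFE3, FOXO3, FLCN and FNIP1. None fell (0 in limma even at an unadjusted p below 0.05), and 2 rose after the correction. TFEB was not called (log2 change 0.08, limma adjusted p = 0.636), and neither were MITF, FOXO4 and ZKSCAN3. The change of TFE3 was 0.36 (limma adjusted p = 0.00319, corrected 0.23, adjusted p = 0.0203), with no call after median centring (-0.03, adjusted p = 0.718). FLCN, which encodes folliculin, the Rag GTPase activator that keeps TFEB out of the nucleus, rose from 28.3 ± 1.07 to 41.9 ± 1.96 TPM (log2 change 0.55, limma adjusted p = 0.000984; corrected 0.33, adjusted p = 0.00819), a call lost after median centring (0.16, adjusted p = 0.132). Its partner gene FNIP1 rose from 0.587 ± 0.0839 to 2.03 ± 0.245 TPM (0.93; corrected 0.15, adjusted p = 0.564). FOXO3 (0.65) lost its call after the correction (adjusted p = 0.615), after quantile normalization (0.271), after median centring (0.284) and when any one of control 2, control 3, OGT 1 and OGT 2 was left out (0.056 to 0.0739).

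Of 9 tested further formation genes 7 rose and none fell (0 in limma even at an unadjusted p below 0.05), 3 of them after the correction. NRBF2, a subunit of the lipid kinase complex, rose from 4.83, 3.49 and 2.54 TPM to 9.30, 8.23 and 9.01 TPM (log2 change 1.12, limma adjusted p = 0.0041; corrected 0.68, adjusted p = 0.0399). It was not called with the correction and a replicate block (limma adjusted p = 0.0621). SH3GLB1 (0.97) and the lipid scramblase gene TMEM41B (0.68) rose as deposited, with corrected changes of 0.18 and -0.05. TMEM41B lost its call after quantile normalization and median centring (adjusted p = 0.281 and 0.245), without control replicate 2 and without OGT replicate 1, 2 or 3 (adjusted p from 0.0552 to 0.0582). Among 14 fusion genes 5 rose and 1 fell (corrected, 2 and 1). RAB7A, the late endosomal GTPase gene, rose from 123.72, 144.27 and 140.36 TPM to 303.67, 301.14 and 291.59 TPM (1.13, adjusted p = 5.9e-05; corrected 0.78, adjusted p = 0.00045). Its adaptor gene PLEKHM1 rose (0.75, corrected 0.53), with no call after median centring (0.36, adjusted p = 0.0738). VPS33A rose as well (0.69), with no call after the correction (0.11, adjusted p = 0.696), quantile normalization or median centring (adjusted p = 0.245 and 0.212), or without control replicate 2 or OGT replicate 3 (0.0533 and 0.0554). VAMP8, which encodes a SNARE partner of syntaxin 17, fell from 199.20, 196.37 and 186.25 TPM to 164.49, 148.89 and 161.04 TPM (-0.29, adjusted p = 0.00431; corrected -0.15, adjusted p = 0.0653).

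Organelle receptors and their kinases gave 9 genes that rose and 3 that fell of 19 tested (corrected, 2 and 5). PINK1, the kinase that marks damaged mitochondria, fell from 259.03, 287.35 and 289.58 TPM to 192.20, 192.52 and 188.19 TPM (log2 change -0.54, limma adjusted p = 0.000341; corrected -0.61, adjusted p = 0.00027). The mitochondrial matrix gene NIPSNAP1 fell (-0.36, corrected -0.44) while its paralog NIPSNAP2 rose from 1.68 ± 0.278 to 8.55 ± 0.736 TPM (1.84, corrected 1.34), each past the threshold in both fits. The reticulophagy receptor gene TEX264 fell (-0.29, corrected -0.26), and SEC62 (1.13) and WDFY3 (1.10) rose with no call after the correction (adjusted p = 0.251 and 0.177).

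Of 17 tested VCP cofactors 11 rose and 4 fell (corrected, 2 and 4). PLAA (1.45, corrected 0.73) and FAF2 (1.07, corrected 0.46), which encode VCP adaptors, rose in both fits. FAF2 was not called with the correction and a replicate block (limma adjusted p = 0.0806). UBXN4, an adaptor gene of the endoplasmic reticulum, rose as deposited (1.29, limma adjusted p = 0.0224). Its call was lost after the correction (adjusted p = 0.288), after quantile normalization and median centring (0.0971 and 0.0853), with no filter on low values, and without control replicate 1 or 3 (0.0604 and 0.0559). NSFL1C (p47) fell from 158.06, 124.55 and 133.27 TPM to 104.20, 106.54 and 108.71 TPM (log2 change -0.37, limma adjusted p = 0.0121; corrected -0.64, adjusted p = 0.00249). UFD1, the ubiquitin recognition subunit gene, fell from a mean of 159.9 to 141 TPM (-0.18, adjusted p = 0.0207; corrected -0.51, adjusted p = 0.000764), and was not called when any one of control 2, control 3 and OGT 1 was left out (0.0508 to 0.0608). UBXN6 fell in both fits (-0.32, corrected -0.23).

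**Figure D4:**
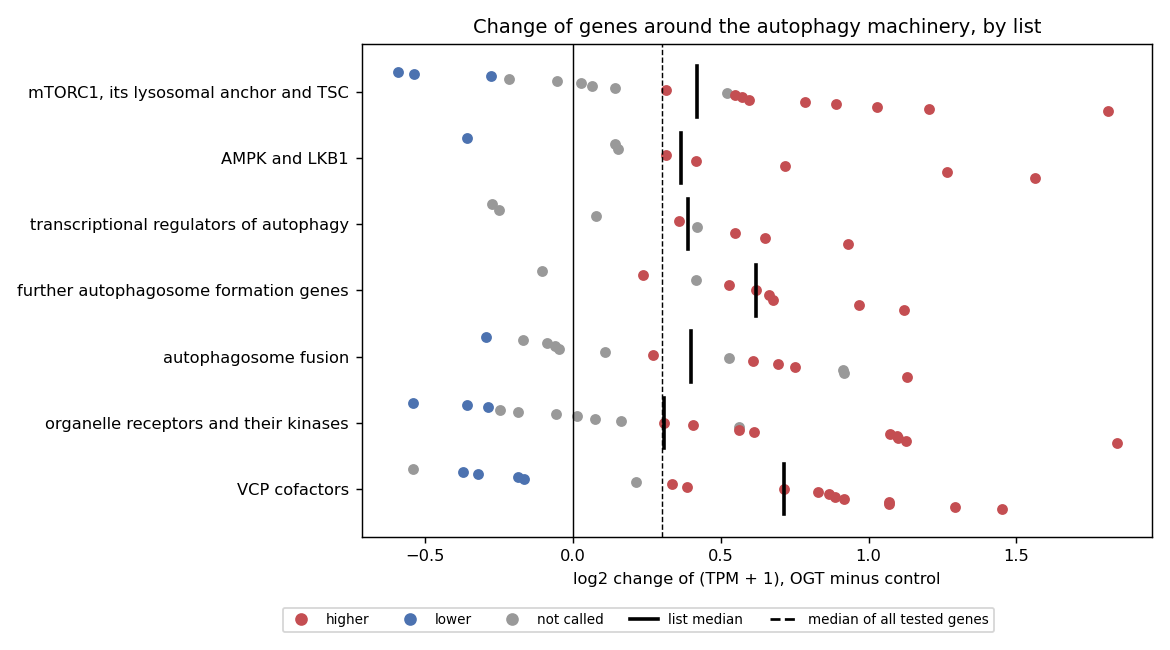
Change of the 93 tested genes of the 7 surrounding lists on the log2(TPM + 1) scale, OGT minus control, as deposited (points, 1 per gene; red, higher; blue, lower; grey, not called by limma), with each list's median (bar) and the median of all tested genes (dashed line, 0.30). Each list holds genes on both sides of that line, and LAMTOR3 and NIPSNAP2 lie farthest to the right.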

How the data were processed

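RNA-seq libraries were made from total RNA with a TruSeq RNA kit, per the labels' protocols. The authors deposited TPM per gene, with 1 column for each of 6 samples; the unit was read from the column sums (993935.53 to 996951.62). Aligner, counting tool and strand: not given in the sources used here. GRCm38 and mm10, both mouse, are the builds in the submitters' processing notes, while the identifiers are human Ensembl genes. Groups and replicate numbers came from the titles. The level of 1 marker gene is not reported here.

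A gene was tested if 3 or more libraries reached 1 TPM (12645 genes). The test was limma 3.58.1 under R 4.3.3 on log2(TPM + 1), with a trended, robust eBayes step and two-sided p-values, adjusted over all tested genes by the Benjamini-Hochberg method (threshold 0.05). The correction subtracted each library's natural spline trend (4 degrees of freedom each) on GC content and log10 length of the longest GENCODE release 29 transcript, protein-coding where there is one, matched by Ensembl identifier for 97.7% of tested genes and for the 35 tested members. The scripts were tested on simulated data. Exon overlaps came from the same release. Promoters came from RefSeq. All 38 members are named, and of each surrounding list the 3 largest called rises and falls. Overlapping genes, LAMTOR1, LAMTOR5, TFEB, TFE3, MITF, FOXO4 and ZKSCAN3 fall outside that rule and were picked with values in view. The members and lists were chosen with earlier results of these data known. No library was duplicated: Pearson correlations of log2(TPM + 1) between libraries were at most 0.981.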

Additional observations from a re-analysis of the deposited data

How the results depend on the processing

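The number of members that rose was 18 as deposited, 10 after quantile normalization, 9 after median centring, 5 after the GC and length correction and 5 with the correction and a replicate block. Those that fell numbered 1, 1, 5, 3 and 3. Of all genes, 2558, 1937, 1974 and 1521 were higher and 2245, 3066, 1582 and 1313 lower under the same 4 settings, and of the surrounding genes 28, 21, 16 and 12 were higher and 16, 24, 12 and 9 lower. Leaving out 1 library gave 12 (without control replicate 2) to 17 members higher and 1 to 2 lower, 3899 to 4604 genes higher and 989 to 1127 lower. With a pseudocount of 0.1, no filter or a mean of 5 TPM or more, the counts over all genes, members and surrounding genes stayed within 1.5 times. By list, the lipid kinase complex had 2 of 6 genes higher with no filter, and at the mean of 5 TPM the transcriptional regulators had 2 of 3 and the VCP cofactors 7 of 11. These stand beside 4102 of 25005 genes higher with no filter and 3621 of 8190 at the mean of 5 TPM. No filter also ended the calls of ULK2, UVRAG, AMBRA1, ATG2A, MLST8, CAB39 and UBXN4 (limma adjusted p from 0.0575 to 0.094). Same-numbered libraries did not deviate together over all tested genes (correlations -0.0194 to 0.0166, and 1 of 6 libraries correlated best with its own number). Such deviations also hold the scatter of single libraries, so the correlations cannot exclude a shared culture or preparation. The replicate block gave 13 members higher and 1 lower, and 4382 and 1091 genes. Among the members and the surrounding genes named by rule, signs turned after median centring for RB1CC1 (-0.0101), ATG14 (-0.0473), WIPI2 (-0.33), ATG2A (-0.0624), ATG4D (-0.32), ATG7 (-0.19), ATG12 (-0.0137), ATG16L1 (-0.0518), GABARAP (-0.32, limma adjusted p = 0.0222), GABARAPL1 (-0.0386), GABARAPL2 (-0.21), VCP (-0.0125) and STX17 (-0.37). After the correction, with or without the block, they turned for RB1CC1 (-0.39), PIK3C3 (-0.11), ATG14 (-0.34), WIPI2 (-0.24), ATG2B (-0.16), ATG5 (-0.0393), ATG7 (-0.23), ATG12 (-0.35), ATG16L1 (-0.0171), GABARAP (-0.0679), GABARAPL2 (-0.0421), STX17 (-0.56) and TMEM41B (-0.0481). After quantile normalization they turned for ATG14 (-0.062), WIPI2 (-0.0349), ATG4D (-0.18), ATG7 (-0.00955), ATG12 (-0.0171), GABARAPL2 (-0.0777), SQSTM1 (0.0206) and STX17 (-0.36). With 1 library left out, ATG4B ranged from -0.0941 to 0.0746, ATG4D from -0.0792 to 0.15 and STX17 from -0.22 to 0.22. The cause of these changes was not tested, and centring and the correction both shift the libraries by construction. Depth is unknown, so precision at the lowest TPM cannot be stated.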
